A study of Homo sapiens with 16 samples.

Results

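The regions described here are stretches of chromosomes 1 to 22 in which a peak of accessible chromatin was listed for soft-selected MDA-MB-231 cells on both soft and stiff gel and for ancestral cells on neither. They are called selected-only regions. Peaks of the 4 lists that overlapped by at least 1 bp were merged, which gave 161185 regions. Of these, 15857 had a peak in both selected lists and in no ancestral list. Another 580 were then removed because they touched a stretch where an ancestral list skips a peak number, so that a peak may be missing there. This left 15277 selected-only regions, 9.48% of all merged regions. The choice rests on the presence of listed peaks, so this share is a description with no test.

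MDA-MB-231 is a human cell line, established from a breast adenocarcinoma. Its 16 samples formed 4 groups of 4, namely selected cells on gels of 1 kPa (soft) or 308 kPa (stiff) and ancestral cells on the same soft or stiff gels. Gels were polyacrylamide with type I collagen on the surface. Selection lasted 75 days, with 20000 cells moved to a fresh gel about every 7 days, and selected cells are those that were carried on soft gel. Libraries were made from 50000 nuclei out of 200000 cells, and all cells carried the label wild type. ATAC-seq was used to ask whether selection on a soft matrix changed accessibility. Each group has 1 deposited peak list, with no values for its 4 samples. Replicates therefore give no spread and no p-value was computed, and the exact Clopper-Pearson 95% intervals below cover counting error only.

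A transposase inserts sequencing adapters where DNA is free of nucleosomes, so peaks mark active or poised promoters, enhancers and insulators. Promoters rich in CpG, the pair of a cytosine followed by a guanine, are open in most cell types, whereas enhancers differ between cell types. HOX and other homeobox genes, SOX genes and FOX genes encode transcription factors that set position and cell identity in the embryo. In adult cells that do not use them, many of these genes lie under Polycomb repression.

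The promoter sequences below show what kind of start site the selected-only regions overlapped. They belong to the 6 genes with the strongest regions over a promoter and a gene end, among members of the gene lists and the genes with the most regions. Each runs from 250 bases before to 50 bases after an annotated start, read 5′ to 3′ on the gene's strand from RefSeq (GRCh38.p14), with CpG in capitals.
PAX2, chr10:100735146-100735445, plus strand: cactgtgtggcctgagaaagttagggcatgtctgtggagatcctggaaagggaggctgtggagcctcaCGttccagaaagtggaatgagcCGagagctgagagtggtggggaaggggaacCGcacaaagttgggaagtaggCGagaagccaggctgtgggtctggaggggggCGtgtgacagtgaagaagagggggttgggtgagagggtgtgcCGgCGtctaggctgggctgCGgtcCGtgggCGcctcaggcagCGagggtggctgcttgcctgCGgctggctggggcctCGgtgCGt
EVX1, chr7:27242552-27242851, plus strand: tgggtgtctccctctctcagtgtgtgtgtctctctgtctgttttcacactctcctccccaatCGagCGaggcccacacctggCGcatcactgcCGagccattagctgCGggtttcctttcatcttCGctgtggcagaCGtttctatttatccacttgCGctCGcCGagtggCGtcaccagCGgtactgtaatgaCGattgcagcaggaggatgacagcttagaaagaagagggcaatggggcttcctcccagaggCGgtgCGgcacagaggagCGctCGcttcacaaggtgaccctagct
FOXI1, chr5:170105647-170105946, plus strand: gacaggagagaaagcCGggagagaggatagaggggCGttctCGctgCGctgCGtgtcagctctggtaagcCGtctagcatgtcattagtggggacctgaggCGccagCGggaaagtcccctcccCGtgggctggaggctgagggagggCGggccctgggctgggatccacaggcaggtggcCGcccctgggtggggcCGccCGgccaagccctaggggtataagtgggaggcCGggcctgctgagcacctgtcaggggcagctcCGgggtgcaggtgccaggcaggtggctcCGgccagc
COL23A1, chr5:178590344-178590643, minus strand: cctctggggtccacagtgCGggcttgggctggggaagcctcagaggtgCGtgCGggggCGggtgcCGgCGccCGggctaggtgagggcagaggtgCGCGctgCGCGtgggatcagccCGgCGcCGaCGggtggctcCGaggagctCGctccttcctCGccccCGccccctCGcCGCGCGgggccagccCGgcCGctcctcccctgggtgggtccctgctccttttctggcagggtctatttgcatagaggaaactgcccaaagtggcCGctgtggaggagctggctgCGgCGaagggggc
HOXA9, chr7:27165488-27165787, minus strand: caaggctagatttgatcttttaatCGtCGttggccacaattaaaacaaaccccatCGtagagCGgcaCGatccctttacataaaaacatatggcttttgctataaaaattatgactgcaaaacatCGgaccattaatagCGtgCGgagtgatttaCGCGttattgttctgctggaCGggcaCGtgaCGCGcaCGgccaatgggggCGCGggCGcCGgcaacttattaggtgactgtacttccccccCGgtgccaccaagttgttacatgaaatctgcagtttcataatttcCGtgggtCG
SOX30, chr5:157671431-157671730, minus strand: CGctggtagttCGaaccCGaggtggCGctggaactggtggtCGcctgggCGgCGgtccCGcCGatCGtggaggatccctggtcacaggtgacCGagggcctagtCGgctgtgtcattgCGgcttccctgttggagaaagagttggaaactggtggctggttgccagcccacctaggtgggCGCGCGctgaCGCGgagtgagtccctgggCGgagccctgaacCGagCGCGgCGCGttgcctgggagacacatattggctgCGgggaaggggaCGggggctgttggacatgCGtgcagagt
For contrast, the next promoter was overlapped by an ancestral-only region, one with a peak in each ancestral list and no peak in the selected lists. Over the genome there were 8216 ancestral-only regions, 5.1% of all merged regions, after the same removal of skipped stretches. It was picked after values were seen, as the strongest of those whose CpG number equals the median of its class.
CES4A, chr16:66988339-66988638, plus strand: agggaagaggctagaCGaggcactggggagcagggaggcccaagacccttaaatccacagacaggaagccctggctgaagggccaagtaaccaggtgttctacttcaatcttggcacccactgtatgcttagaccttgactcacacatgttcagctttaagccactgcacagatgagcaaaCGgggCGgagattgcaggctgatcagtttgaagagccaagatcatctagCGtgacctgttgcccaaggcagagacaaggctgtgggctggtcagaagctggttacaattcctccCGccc
The 6 promoters at selected-only regions held 14 CpG (PAX2), 17 (EVX1), 16 (FOXI1), 28 (COL23A1), 22 (HOXA9) and 27 (SOX30). CES4A held 5. This contrast does not hold for every promoter, since DACT2, at the strongest ancestral-only region over a promoter, held 29.

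PAX2 encodes a paired-box factor of kidney and eye development. The fold enrichment, which is the authors' pileup at the summit over the background of that list, was 4.14 on soft gel and 4.48 on stiff gel in selected cells for the PAX2 promoter region. EVX1 encodes a homeobox factor beside the HOXA cluster, and its region had 4.84 on soft gel and 4.11 on stiff gel. FOXI1, a forkhead factor of ion-transporting epithelial cells, had 4.01 and 4.63 in that order. COL23A1, a transmembrane collagen gene, had 3.80 and 5.07, HOXA9 had 4.42 and 3.75, and the SOX gene SOX30 had 4.08 and 3.67. In each of these regions both ancestral lists had no peak, which the choice of regions fixes. EVX1 and COL23A1 had another end peak, meaning one up to 1 kb from an annotated gene end, in both ancestral lists, and HOXA9 in the stiff one.

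Over all 21154 promoters in the sequence table, which covers 15099 genes and no gene of chromosome 8, selected-only regions overlapped 510, or 2.41%. Ancestral-only regions overlapped 67, or 0.317%. The median CpG number was 19 at promoters with a selected-only region and 5 at those with an ancestral-only region. It was 26 at the 13385 promoters with a region of all 4 lists, 4 at the 5538 promoters with no peak and 21 over all promoters. Promoters with selected-only regions thus stood near the median of all promoters, between those open in every list and those open in none. The GC content had the same order among these 4 classes, with medians of 64.3% (selected-only), 50% (ancestral-only), 65.7% (all 4 lists) and 48.3% (no peak). Over all promoters it was 62.7%, so here selected-only promoters stood above the median of all promoters, while their CpG number stood below it.

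The motif GGGCGG, searched on both strands, was in 57.8% of promoters with a selected-only region (53.4% to 62.2%). It was in 20.9% of those with an ancestral-only region (11.9% to 32.6%) and in 56.6% of all promoters. The motif TATAAA was in 7.84% with a selected-only region (5.66% to 10.5%), against 16.4% with an ancestral-only region (8.49% to 27.5%) and 9.51% of all promoters. For the AP-1 motif, TGACTCA or TGAGTCA, the shares were 2.94% with a selected-only region (1.66% to 4.80%), 10.4% with an ancestral-only region (4.30% to 20.3%) and 3.98% of all promoters. GGAATG, the core of the TEAD motif, was in 10.2%, 17.9% and 12.2% in the same order of classes. The intervals for selected-only promoters included the share of all promoters for each of these 4 motifs. The same held for the motif CCAAT (30.2% with a selected-only region, 34.4% of all), the motif CAGCTG (20.8%, against 18.1%) and the motif CACGTG (7.45%, against 8.25%). No searched motif contains another. The strongest promoter regions of all genes, whether in a list or not, lay at DPYSL4 (6.49 on soft and 6.61 on stiff gel) and PODN (6.36 and 5.95). DPYSL4 encodes a dihydropyrimidinase-like protein. Next were those at the luminal and T cell factor gene GATA3 (5.53 and 5.36) and at GFI1 (5.04 and 5.22), a repressor of blood cells. Within 1 kb of an annotated end, GATA3 had an ancestral-only region, no selected-only region and a peak in each of the 4 lists. By nearest gene it had 9 selected-only and 3 ancestral-only regions.

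Most selected-only regions were weak. Fold enrichment on soft gel had a minimum of 1.93, a median of 2.76 and a maximum of 26.9 in selected cells, and on stiff gel 1.98, 2.72 and 21.9. These minima are the lowest values in the lists, so the class reaches down to the calling threshold. The median region stood at percentile 28.7 of its list on soft gel and 20.7 on stiff gel. The median ancestral-only region stood at percentiles 30.6 and 33.1 of the ancestral lists, so by rank it was about as low on soft gel. Regions of all 4 lists had medians of 6.49 on soft and 7.93 on stiff gel in selected cells. Ancestral-only regions had 3.70 on soft and 3.82 on stiff gel in ancestral cells. The pileup at the summit, in fragments not scaled to depth, had a median of 39 on soft gel and 36 on stiff gel. A −log10 q-value of at least 10 was reached by 21.4% of selected-only regions on soft gel, by 16.5% on stiff gel and by 1654 regions (10.8%) on both. Among ancestral-only regions, 72.9% reached it on soft gel and 80.2% on stiff gel. The order of the classes turned with this threshold. With peaks under it dropped from every list, 4226 regions were selected-only and 11452 ancestral-only, against 15277 and 8216 without it. With peaks under it dropped from the selected lists alone, 1660 regions were selected-only. Each list was called over its own background pileup, which was 13.5 and 12.6 in selected cells on soft and stiff gel and 16.3 and 20.2 in ancestral cells. The part of these backgrounds in which peaks were listed was not tested.

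**Figure D1:**
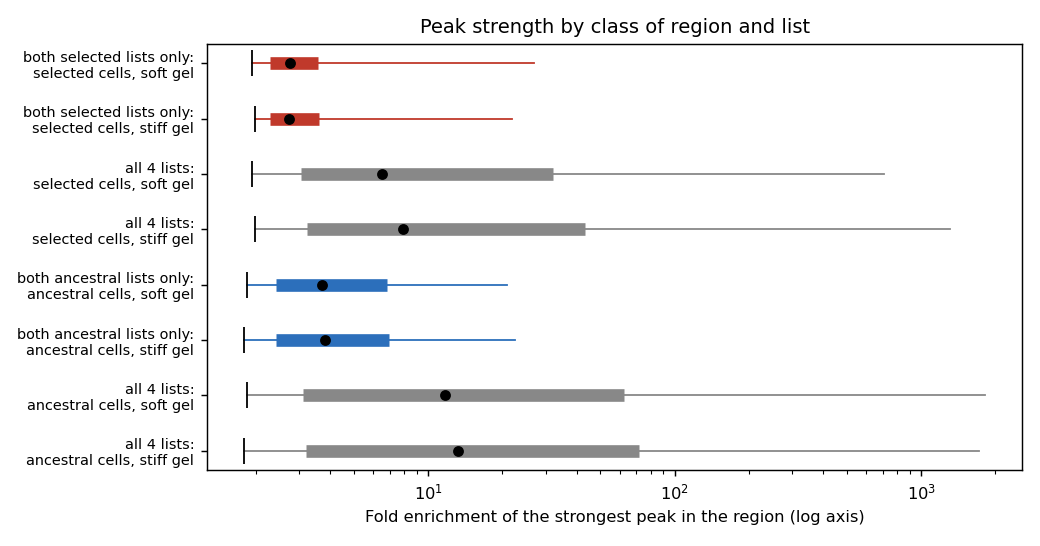
Fold enrichment of the strongest peak per region on a log axis, for each class of region and list. Thin lines run from the lowest to the highest value, thick bars from the 10th to the 90th percentile, black points are medians and upright ticks are the lowest value of the list. Selected-only regions had medians of 2.76 and 2.72, close to the ticks at 1.93 and 1.98.

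Soft and stiff gel ranked the regions alike in part. Across the 15277 regions, fold enrichment on soft and on stiff gel had a Spearman correlation of 0.51 and a Pearson correlation of 0.65 on the log2 scale, over regions that share the choice by both lists. In 92.4% of regions each selected list had exactly 1 peak. Regions had a median width of 919 bp, with a range of 314 to 8452 bp, against 517 bp for ancestral-only regions and 1390 bp for regions of all 4 lists. Together they covered 16.8 Mb. By the lower of both fold enrichments, 7536 regions (49.3%) lay under 2.5, 4925 between 2.5 and 3, 2338 between 3 and 4, 372 between 4 and 5 and 106 at 5 or more. The share within 1 kb of a gene end was 8.09%, 10.9%, 14.5%, 16.1% and 13.2% from the lowest to the highest of these classes.

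Few regions stood far above the rest. Of the 106 regions at 5 or more by the lower of both fold enrichments, 13.2% came within 1 kb of a gene end. The share was 10.2% over all selected-only regions. The strongest lay 103 kb from SLCO3A1, an organic anion transporter gene (chromosome 15, 91749487 to 91751202), at 26.9 on soft and 21.9 on stiff gel in selected cells. The next lay 83.4 kb from ANKRD46, at 19.8 and 19.5. A region inside RGPD2, at 18.6 and 18.7, covered the mitochondrial pseudogenes MTATP8P2 and MTATP6P28. A region inside CDH4, the R-cadherin gene (chromosome 20, 61328675 to 61329763), had 16.3 on soft and 14.03 on stiff gel. The other strong regions lay 56.3 kb from the forkhead gene FOXI2 (13.3 and 14.4), 18.4 kb from FIBCD1 (13.1 and 13.7), and inside ZNF516 (12.02 and 12.4), ARHGEF10 (9.67 and 11.4), RSPH1 (9.05 and 10.1) and ZNF469 (8.91 and 8.67). The nearest ancestral peak was 42635 bp from the SLCO3A1 region and 197 bp from the RSPH1 region.

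An ancestral peak was often close by. The median distance was 2640 bp, 7.01% of selected-only regions had one within 500 bp and 84.2% within 10 kb. For ancestral-only regions, the nearest selected peak was at a median of 7028 bp. At the edge of the rule, regions in PHRF1, LRP8 and HOXA3 counted as selected-only with an ancestral peak 6, 9 and 12 bp away. Regions in LIG1, ACTN4 and ZSCAN10 did not, through overlaps of 4, 8 and 9 bp.

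Selected-only regions lay in genes and in gene-rich parts of chromosomes. Inside protein-coding genes lay 62.9% (62.1% to 63.6%), against 38.3% of ancestral-only regions (37.3% to 39.4%) and 52.3% of all merged regions. Over 100 kb from any such gene lay 5.54% of selected-only regions, against 29.4% of ancestral-only regions and 14.5% of all merged regions. A 1 Mb window with 15 or more gene middles held 40.0% of selected-only regions, against 8.65% of ancestral-only regions and 28.6% of all merged regions. Windows with no gene held 0.851% and 14.7% of selected-only and ancestral-only regions, and 7.02% of all merged regions.

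**Figure D2:**
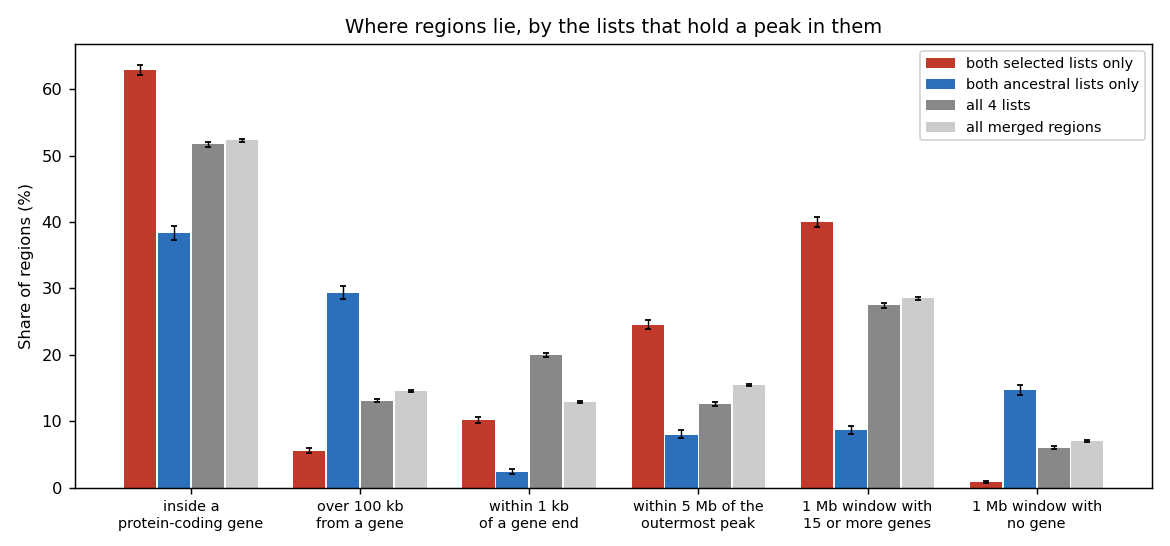
Share of regions in percent, with exact 95% intervals, for selected-only, ancestral-only and all-4-list regions and for all merged regions. Selected-only regions had the highest share inside genes (62.9%) and the ancestral-only regions the highest share over 100 kb from a gene (29.4%).

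They were less often at gene ends than regions open in every list and than all merged regions. Within 1 kb of an annotated gene end lay 10.2% of selected-only regions (9.72% to 10.7%), 2.42% of ancestral-only regions and 20.005% of regions of all 4 lists. The share was 12.9% of all merged regions. Of the regions inside genes, 22.2% of the selected-only ones had their midpoint in the outer 20% of the gene's length, taken evenly from its ends. The shares were 20.9% for ancestral-only regions and 34.1% for regions of all 4 lists. Selected-only regions inside genes were thus spread along the gene body nearly by length. The strand was in hand for 79.6% of them, under the 80% needed, so a split into 5′ and 3′ ends is void.

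Chromosome ends carried many of them. Within 5 Mb of the outermost peak of a chromosome lay 24.5% of selected-only regions (23.9% to 25.2%), against 8.01% of ancestral-only regions and 15.5% of all merged regions. By chromosome, selected-only regions made up 14.9% of the merged regions of chromosome 20, 14.6% on 19, 12.6% on 22 and 12.3% on 17, and 4.71% on 13 and 4.97% on 18. There were 10.2 selected-only regions per ancestral-only region on chromosome 19 and 0.463 on chromosome 13. The 268 of 2688 windows of 1 Mb with the most selected-only regions held 57.0% of them, and the 268 windows with the most ancestral-only regions held 33.4% of those. The top 1 Mb window, at 3 to 4 Mb of chromosome 1, had 91 selected-only regions and 1 ancestral-only region, and holds PRDM16.

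The 10 Mb windows with the most selected-only regions lay on chromosome 19 from 0 to 10 Mb, with 348 selected-only and 13 ancestral-only regions, and on chromosome 20 from 30 to 40 Mb, with 338 and 11. Chromosome 4 from 0 to 10 Mb had 325 and 13, chromosome 1 from 0 to 10 Mb had 317 and 10, and chromosome 9 from 130 to 140 Mb had 313 and 12. In the order given, these windows held 2058, 1875, 1628, 1549 and 1720 merged regions and 324, 127, 135, 141 and 153 genes. In all 5, the pileup at regions of all 4 lists was also high in selected relative to ancestral cells. The median log2 pileup ratio on soft gel, set to 0 at the genome median, was 0.23, 0.25, 0.30, 0.13 and 0.34 in the order given. Before that centring the genome median was −1.01 on soft gel and −1.28 on stiff gel. In the 49 windows with 100 or more selected-only regions, which held 60.4% of them, the ratio was above the genome median in 41 on soft gel and 43 on stiff gel. In the 74 windows with fewer than 10 selected-only regions it was above in 6 on soft gel.

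Over 275 windows of 10 Mb, the log2 ratio of selected-only to ancestral-only regions had a Spearman correlation of 0.66 with the pileup ratio on soft gel and 0.69 on stiff gel. Pearson correlations were 0.58 and 0.55. Windows share lists and depth and neighbour each other, so these are descriptions. Within the 12 chromosomes with 10 or more windows, the Spearman correlation on soft gel ranged from 0.10 on chromosome 4 to 0.91 on chromosome 12. A group of 10 windows, picked after values were seen, left the pattern, with a ratio above 0.3 on soft gel and more ancestral-only than selected-only regions. They were 10 of the 20 windows with a ratio above 0.3. They held 204 selected-only and 530 ancestral-only regions. Examples are chromosome 13 from 10 to 20 Mb, with 0 and 36, and chromosome 1 from 120 to 130 Mb, with 3 and 46. The parts of the pileup ratio, of the number of genes and of the number of merged regions in the number of selected-only regions were not tested.

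**Figure D3:**
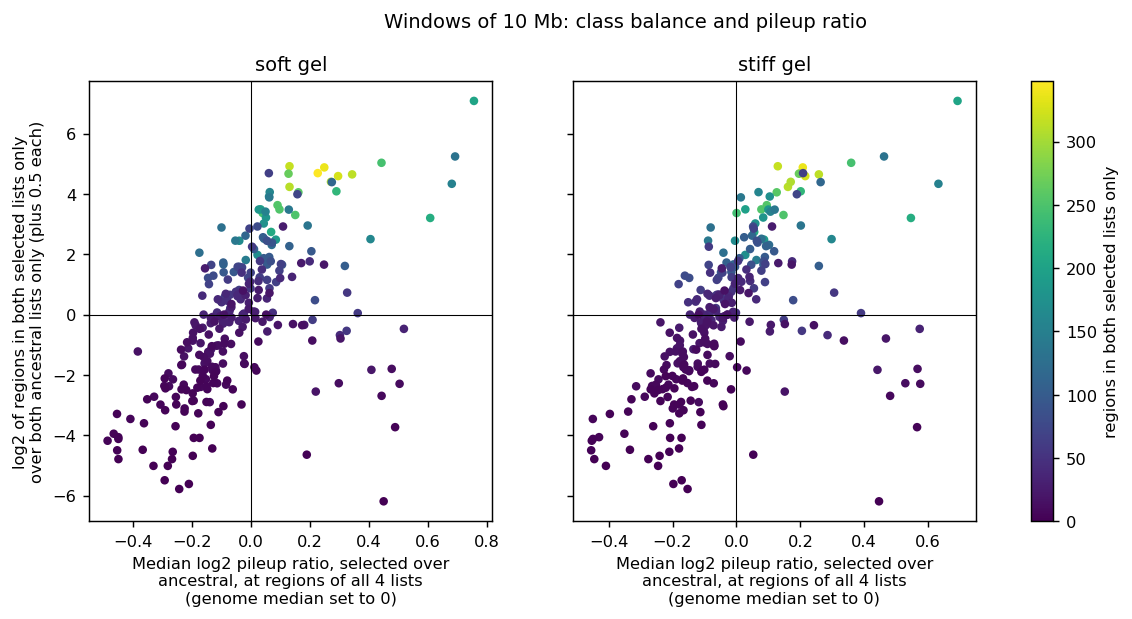
Each point is 1 of 275 windows of 10 Mb. The x axis is the median log2 pileup ratio of selected over ancestral cells at regions of all 4 lists, the y axis the log2 ratio of selected-only to ancestral-only regions, and colour the number of selected-only regions. Most points rise from lower left to upper right (Spearman 0.66 and 0.69), and the 10 windows at the lower right of the soft gel panel do not.

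By nearest gene within 100 kb, selected-only regions fell on 5895 of 19126 protein-coding genes (30.8%), and ancestral-only regions on 3697 (19.3%). TRAPPC9, a subunit of a vesicle-tethering complex, had 70 selected-only regions and 0 ancestral-only ones. CDH4 had 62 and 0, GSE1, a gene of a histone deacetylase complex, had 58 and 2, and PRDM16, a zinc-finger factor of brown fat and blood stem cells, had 55 and 0. PTPRN2 (53 and 1), SHANK2 (49 and 2), MAD1L1 (36 and 0), SORCS2 (36 and 0), INPP5A (35 and 1), GLI2 (32 and 0), RBFOX3 (31 and 2) and VAV2 (30 and 0) followed. MAD1L1 acts at the mitotic checkpoint, GLI2 carries hedgehog signals and VAV2 is a guanine nucleotide exchange factor. Of these, PRDM16 stood apart by this count in having 5 regions of all 4 lists beside its 55, while TRAPPC9 had 37 and CDH4 had 45. Regions with a midpoint in a shorter gene that overlaps PRDM16 are not in its counts. One such selected-only region, assigned to LOC124903828, had 7.94 on soft and 7.71 on stiff gel. An ancestral-only region within 1 kb of an end of PRDM16 was likewise assigned to another gene.

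The 12 genes are long. They measure between 230 kb (VAV2) and 1049 kb (PTPRN2) and together hold 3.58% of selected-only regions. Within 5 Mb of TRAPPC9 lay 178 other selected-only regions and 5 ancestral-only ones, with 211 and 9 around PRDM16 and 326 and 12 around VAV2. Near GLI2 there were 33 and 17. The median log2 pileup ratio at regions of all 4 lists, set to 0 at the genome median, differed between the windows of these genes. On soft gel it was 0.76 on chromosome 8 from 140 to 150 Mb, which holds part of TRAPPC9. It was 0.68 on chromosome 20 from 60 to 70 Mb, with CDH4. The window with PRDM16, on chromosome 1 from 0 to 10 Mb, had 0.13. That with GLI2, on chromosome 2 from 120 to 130 Mb, had 0.04. VAV2, with 30 at the gene, had more around it than TRAPPC9, with 70. Other regions of all 4 lists in these surroundings numbered 652 around VAV2 and 272 around TRAPPC9. The parts of the surroundings and of the pileup ratio in the counts at the genes were not tested. Within the genes the regions were mostly weak, with a median fold enrichment of 2.90 on soft and 2.72 on stiff gel at TRAPPC9 and 3.04 and 2.87 at PRDM16. CDH4 ranged from 2.00 to 16.3 on soft gel. In all, 166 genes had 10 or more selected-only regions and 3109 had exactly 1.

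Within 1 kb of an annotated end, 1509 of 19126 genes (7.89%) had a selected-only region, and 203 (1.06%) had an ancestral-only region. The developmental factors stood above this share. Of 39 HOX genes, 20 (51.3%, 34.8% to 67.6%) had one, and none had an ancestral-only region there. These came from 22 distinct regions, with 2 regions each at HOXA7, HOXB1 and HOXD9 and 1 region shared by HOXD10 and HOXD11. The interval treats HOX genes as independent, although they neighbour each other in clusters, so it may be too narrow. Of the 20 HOX genes, 7 also had another peak at an end in an ancestral list, 6 of them in both, and 13 had none. Over all 1509 genes with a selected-only region at an end, 966 (64.0%) had an ancestral end peak as well. Of 68 other homeobox factors, 20 (29.4%, 19.0% to 41.7%) had one and 1, NKX2-8, had an ancestral-only region. SOX genes had 7 of 18 (38.9%, 17.3% to 64.3%) and FOX genes 10 of 41 (24.4%, 12.4% to 40.3%), with no ancestral-only region in either list. These counts rest largely on weak peaks. With peaks under a −log10 q-value of 10 dropped from every list, 3 HOX genes (7.69%), 13 other homeobox genes (19.1%), 3 SOX genes (16.7%) and 6 FOX genes (14.6%) had a selected-only region at an end, against 3.77% of all genes. The lists were chosen with results of these data known, so the counts are descriptions.

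Among the HOX genes, the region at HOXA3 had 4.70 on soft and 4.48 on stiff gel in selected cells, and that at HOXD3 had 3.45 and 3.82. Both of these lie at the 3′ end of the gene. The region at HOXB4 had 4.08 and 3.23. By the lower of both values, the weakest was at HOXA6, with 2.35 and 2.13. Over a window around the HOXA cluster, selected cells had 41 peaks on soft and 33 on stiff gel, ancestral cells 11 and 12, and 19 regions were selected-only. Around HOXB the counts were 30 and 31 in selected cells, 10 and 11 in ancestral cells, and 14 selected-only. Around HOXD they were 19 and 18, 6 and 8, and 9 selected-only. HOXC had 8 and 12 in selected cells, 5 and 5 in ancestral cells, and 1 selected-only region, at HOXC9. Ancestral cells thus had peaks in each of the 4 clusters, and the selected-only regions lay between and beside them.

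**Figure D4:**
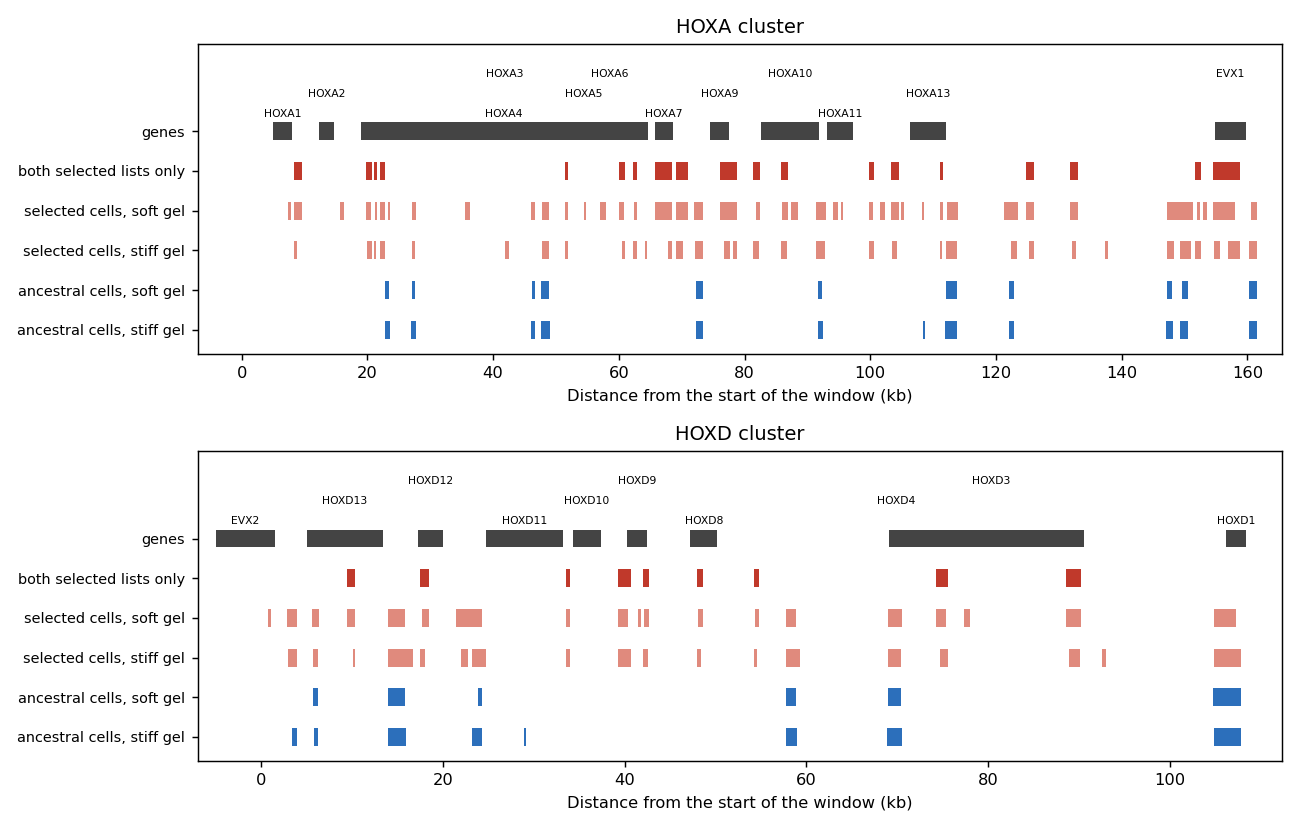
Genes, selected-only regions and the peaks of each list along the HOXA and HOXD clusters, as distance in kb from the start of the window. Selected cells had 41 and 33 peaks at HOXA and 19 and 18 at HOXD on soft and stiff gel. Ancestral cells had 11 and 12 at HOXA, and 6 and 8 at HOXD.

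The microRNA gene MIR196B lies in the HOXA cluster, in a selected-only region with a fold enrichment of 3.04 on soft and 3.09 on stiff gel. Its region and that of MIR9-3, a copy of the neural microRNA miR-9 on chromosome 15 (2.69 and 3.16), were picked after values were seen. The mature sequences from RefSeq follow, 5′ to 3′, with the seed, bases 2 to 8, in capitals.
miR-196b-5p: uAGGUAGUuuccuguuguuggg
miR-9-5p: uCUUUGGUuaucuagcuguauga
The seeds differ, and miR-196 is known to target HOX transcripts. In all, selected-only regions overlapped 40 of 1461 miRNA hairpins (2.74%) and ancestral-only regions 5 (0.342%).

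At other homeobox genes, a region across NKX6-2, a factor of neural progenitors, had 7.67 on soft and 7.57 on stiff gel, the strongest at a gene end in any of the lists. BARX1 had 4.63 and 5.44, EMX2 4.21 and 3.89 and NKX2-2 5.11 and 3.89. PAX6, the eye and brain factor, had 3.11 and 2.35 in the region with the higher minimum of both gels, and 3.18 and 2.28 in another. In the SOX list, SOX8, a neural crest factor, had 6.01 and 6.02, and SOX1 had 4.08 and 3.82 at its 3′ end. SOX2, the pluripotency factor, had 3.316 and 2.204, and SOX10 had 2.28 and 2.87. Among FOX genes, FOXD4 had 4.49 and 3.89, FOXE3 3.73 and 3.23 and FOXD1 2.14 and 2.94. In the list of 15 EMT and mesenchymal factors, 6 (40%, 16.3% to 67.7%) had a region at an end, against 7.89% of all genes. Among them were TWIST1 (3.32 and 3.01), TWIST2 (4.08 and 3.45 at its 3′ end), FOXC2 (3.52 and 4.04), TBX2 (3.87 and 4.63) and GSC (2.07 and 2.64). The regions at the 5′ end of TWIST2 were weaker, with 3.04 and 2.57, and 2.42 and 3.09. Of the 6, 3 also belong to the FOX, homeobox or T-box lists. With peaks under a −log10 q-value of 10 dropped from every list, 3 of 15 had one.

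**Figure D5:**
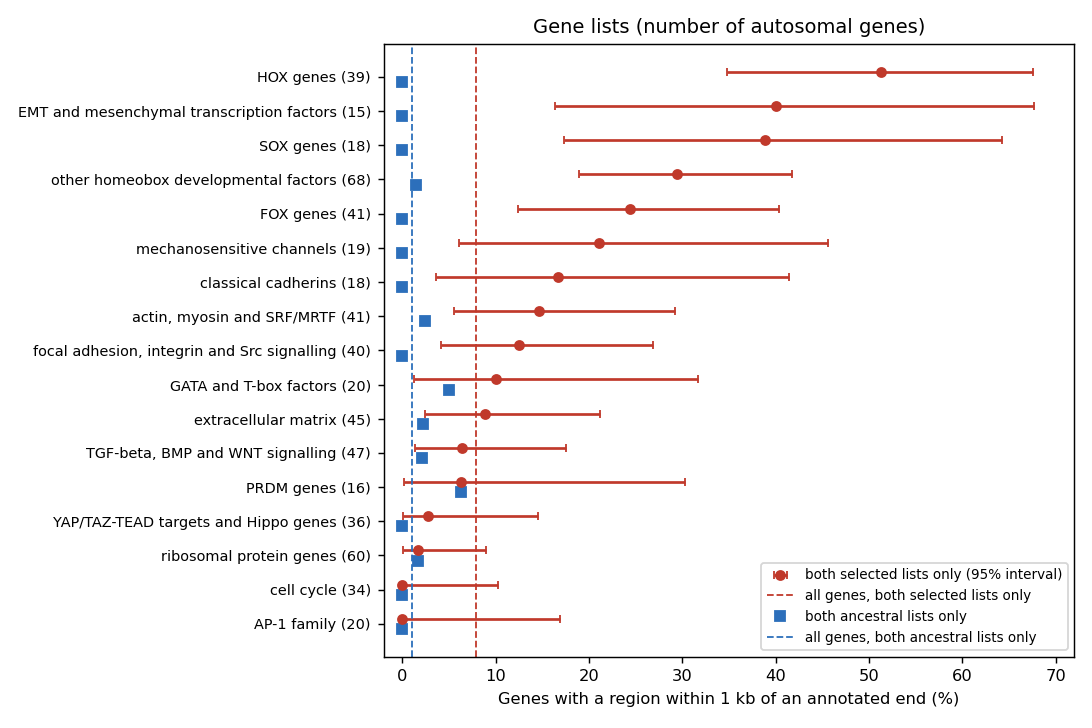
Share of the genes of each list with a region within 1 kb of an annotated end, for selected-only regions (circles with exact 95% intervals) and ancestral-only regions (squares). Dashed lines are the shares over all genes, 7.89% and 1.06%. HOX genes (51.3%) stood highest, and AP-1 and cell cycle genes had no selected-only region at an end.

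Lists of mechanical response stood nearer to the share of all genes. Of 36 YAP/TAZ-TEAD targets and Hippo genes, 1, ARHGEF17, had a selected-only region at an end (2.83 on soft and 2.94 on stiff gel). Focal adhesion, integrin and Src genes had 5 of 40, among them ITGA8 (3.45 and 4.48) and ITGA11 (2.63 and 3.16). Actin, myosin and SRF/MRTF genes had 6 of 41, among them the tropomyosin gene TPM1 (3.45 and 3.38). Extracellular matrix genes had 4 of 45, namely COL23A1, LAMA1 (3.39 and 3.97), COL1A1 (3.32 and 2.94) and COL5A3 (2.28 and 2.42). Mechanosensitive channels had 4 of 19 (21.1%, 6.05% to 45.6%), near the 24.4% of FOX genes, and TRPV4 was among them (3.39 and 3.75). Classical cadherins had 3 of 18, of which N-cadherin, CDH2, had 2.97 and 2.79. Some of these genes also had an end peak in an ancestral list. They were ARHGEF17, 4 of 4 channel genes, 3 of 4 matrix genes, 4 of 6 actin genes, 2 of 5 adhesion genes and 0 of 3 cadherin genes. Genes of TGF-beta, BMP and WNT signals had 3 of 47, ribosomal protein genes 1 of 60, AP-1 genes 0 of 20 and cell cycle genes 0 of 34. A count of 0 of 20 allows a share of up to 16.8%, and 0 of 34 up to 10.3%. GATA and T-box genes had 2 of 20, and GATA3, not among these, had an ancestral-only region at an end. PRDM genes had 1 of 16, namely PRDM16, which also had an ancestral-only region at an end. The 95% intervals of all lists in this paragraph included the 7.89% of all genes.

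The label of the cells was set against marker genes by peaks within 1 kb of an end. Of 6 mesenchymal-like breast cancer markers, 5 had an end peak in each selected list and 4 in each ancestral list, and VIM, AXL, ZEB1 and FN1 had one in all 4. The difference was CD44, with a selected-only region at its 3′ end (2.35 on soft and 2.94 on stiff gel). By nearest gene, CD44 had 1 selected-only and 5 ancestral-only regions, and the list had 4 and 10. Luminal markers had 6 and 5 of 8 in selected cells on soft and stiff gel and 5 and 6 in ancestral cells, and ESR1 and KRT19 had none. Over all genes, 77.3% and 76.9% had an end peak in selected cells on soft and stiff gel, and 73.7% and 74.6% in ancestral cells. Blood cell markers had 7 and 6 of 9 in selected cells and 3 and 4 in ancestral cells. Of these, CD3D (2.14 and 2.35), PAX5 (2.90 and 3.09) and LCK (2.76 and 2.87) had a selected-only region at an end (33.3%, 7.49% to 70.1%, which includes the 7.89% of all genes), and PTPRC, which marks blood cells in general, had no end peak in any list. Fibroblast markers had 4 of 6 in each list, and basal markers 2 and 2 of 5 in selected cells and 2 and 3 in ancestral cells. Endothelial markers had 2 and 2 of 4 in selected cells and 1 and 1 in ancestral cells, and neuron markers 2 and 3 of 6, against 3 and 3. The part of other cells in the selected-only regions was not tested.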

How the data were processed

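Accessible chromatin was measured by ATAC-seq in 16 samples, and 1 peak list per group was used. Per the submitters' processing notes, the tools were MACS2 2.2.7.1, Bowtie2 2.4.5, Trimmomatic 0.36, MultiQC 1.1 and FastQC 0.11.4, and the build was GRCh38. The way in which 4 libraries became 1 list is not given in the sources used here, nor are read totals. Per the file headers, each peak has a pileup signal, a −log10 p-value (not used here), a −log10 q-value and a fold enrichment, a ratio over the background of that list. These are values the authors deposited. Each list skips 1107 to 1311 of its peak numbers. The work used scipy 1.17.1, pandas 2.3.3, numpy 2.4.6 and matplotlib 3.10.9 under python 3.11.15, and the merging and counting were tested on simulated data. Regions were assigned by midpoint to the nearest of 19126 protein-coding genes of RefSeq GRCh38.p14 within 100 kb. A midpoint in overlapping genes went to the shorter gene. Promoters were taken for 82.0% of 18411 genes, with chromosome 8 left out. The window ratio adds 0.5 to each count and used windows with at least 20 regions of both classes together and 20 of all 4 lists. Where a region had several peaks, the highest was used. Genes were named as the 10 strongest regions, the 12 genes with the most regions, list genes with a region at an end, the 5 top windows and up to 6 promoters. The regions and gene lists were chosen with earlier results of these data known. Alternatives were stricter q-values, equal list lengths, 500 bp gaps, other gene distances and windows, and regions on skipped numbers kept.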

Additional observations from a re-analysis of the deposited data

How the results depend on the processing

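No paired analysis was possible because each group has 1 list, and leaving out a replicate was not possible for the same reason. When peaks under a −log10 q of 10 were dropped from every list, or from the selected lists alone, selected-only regions numbered 4226 and 1660, against 15277, and 9668 with the top 100000 peaks of each list. Ancestral-only regions numbered 18301, against 8216, when selected lists alone were restricted. Genes near a selected-only region numbered 2588 and 1253 under the same 2 q-value settings, against 5895, and genes with one at an end 721 and 267, against 1509, or 2863 within 3 kb. The share inside genes was 64.8% with every list restricted and 62.0% with peaks merged within 500 bp. The share at gene ends was 16.4% and 15.2% under the q-value settings, 13.5% with the top 100000 peaks, 10.8% with regions on skipped stretches kept and 19.9% within 3 kb. The share in the densest windows was 62.2% and 61.6% under the q-value settings, 59.9% with the top 100000 peaks, 54.3% with peaks merged within 500 bp and 49.1% in windows of 5 Mb. The Pearson correlation of window balance and pileup was 0.46 and 0.39 under the q-value settings and 0.49 in windows of 5 Mb. HOX genes with a region at an end fell to 3 in both q-value settings, against 20. Other homeobox genes numbered 13 and 8, against 20, SOX genes 3 and 3, against 7, and FOX genes 6 and 4, against 10. The EMT list, tried after the data were seen, had 3 and 3, against 6. With every list restricted, all genes had one in 3.77% and HOX genes in 7.69%. Counts at the 12 genes with the most regions fell by over 1.5 times for 11 genes with every list restricted, for all 12 with the selected lists restricted, for 6 with the top 100000 peaks (TRAPPC9 to 35, against 70) and for 3 with peaks merged within 500 bp (MAD1L1 to 17, against 36). The cause of these shifts was not tested. Depth is known only as a background pileup, and most selected-only regions lie near the calling threshold.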

Other observations

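Other gene groups with many selected-only regions were not at gene ends. The cadherin gene CDH22 had 15 selected-only and 0 ancestral-only regions, the collagen gene COL27A1 had 14 and 0, COL5A1 had 13 and 1, and WNT7B, a WNT ligand gene, had 11 and 0. SRC, the kinase of focal adhesions, had 10 and 0, the EMT factor gene SNAI1 had 6 and 0, and the cyclin genes CCND3 and CCND1 had 7 and 0 and 6 and 0. Regions of all 4 lists numbered 20, 14, 42, 10, 9, 8, 9 and 5 at these genes in the order given. Over all genes, the mean was 0.755 selected-only and 0.303 ancestral-only regions per gene. Gene length and the balance in the surroundings were not taken into account. The imprinted region of chromosome 14 near RTL1 held selected-only regions over MIR493 (2.69 on soft and 2.06 on stiff gel) and over MIR337 and MIR665 (3.32 and 2.64, in 1 shared region). These were picked after their values were seen.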
